A study of Mus musculus with 8 samples.

Results

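A set of 9 genes that mark the late stages of the B cell response were followed in inguinal white adipose tissue (iWAT), the fat pad under the skin of the groin, of males on a high-fat diet (HFD). They were chosen by name and are 9 of the 54532 genes in the deposited table: the germinal centre genes Mef2b, S1pr2 and Bcl6, the plasma cell transcription factor genes Irf4, Prdm1 and Xbp1, and the plasma cell product genes Jchain, Mzb1 and Sdc1. They were set against 2 genes of naive B cells, Ighd and Fcer2a. All 9 were present in the table. One group was wild type (WT, n = 4 libraries) and the other carried a knockout of KLF10 in adipocytes (KLF10AKO, n = 4 libraries). The labels give both groups the same tissue, sex and diet, and no source used here gives the driver of the knockout, the age of the mice or the animal behind each library. P-values therefore measure the spread between these libraries.

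As background, a naive B cell carries IgM and IgD on its surface and, after it meets antigen with T cell help, can enter a germinal centre. There BCL6 holds the germinal centre programme and MEF2B activates Bcl6, while the antibody genes are mutated and switched. A cell that leaves as a plasma cell raises IRF4, then PRDM1 (BLIMP1), which silences Bcl6 and Pax5, and XBP1, which widens the secretory machinery for antibody export. Several of these genes also work outside B cells: IRF4, BCL6 and XBP1 act in adipocytes, and SDC1 is a surface proteoglycan of many epithelial and stromal cells.

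Promoter sequences of the germinal centre factors Mef2b and Bcl6, which parted in direction between the groups, are shown with the motif each held out of 4 motifs searched. Sequences are from RefSeq on GRCm38.p6, the assembly also called mm10,, where 8 of the 9 genes and Fcer2a were looked up by symbol. Each run gives the 250 bases before the start, 5′ to 3′, on the gene's strand. Capitals in the Mef2b promoter (chr8:70152511-70152760, plus strand) mark ATGCAAAT, the octamer bound by OCT factors, searched on both strands. Capitals in the downstream of 2 Bcl6 promoters (chr16:23981284-23981533, minus strand) mark TTCNNNGAA, the palindrome of STAT proteins that BCL6 also binds.
Mef2b: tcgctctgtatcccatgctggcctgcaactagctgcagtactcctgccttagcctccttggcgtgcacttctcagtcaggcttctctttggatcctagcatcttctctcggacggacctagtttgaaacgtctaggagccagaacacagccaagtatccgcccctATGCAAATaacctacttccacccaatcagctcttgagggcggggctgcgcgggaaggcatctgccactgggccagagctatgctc
Bcl6: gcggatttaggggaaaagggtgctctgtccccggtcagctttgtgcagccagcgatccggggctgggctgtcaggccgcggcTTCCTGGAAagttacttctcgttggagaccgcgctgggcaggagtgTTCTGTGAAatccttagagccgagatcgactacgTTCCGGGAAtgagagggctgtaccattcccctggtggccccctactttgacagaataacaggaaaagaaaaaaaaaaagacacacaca
The octamer stood 1 time in the Mef2b promoter and in 1.74% of 32851 mouse promoters of 300 bases. TTCNNNGAA stood 3 times in this Bcl6 promoter, which was printed because it held more matches, and 1 time in the upstream one. It was present in 8.30% of promoters, and 3 or more times in 11 of the 32851. Neither motif was found in the windows of the other 7 genes looked up, Fcer2a included. The other motifs searched on both strands were CCACG, the core of XBP1 and ATF6 sites, and the interferon-stimulated response element, bound by IRF factors. CCACG stood in a promoter of S1pr2, Prdm1, Sdc1, Irf4, Bcl6 (the upstream one) and Fcer2a and in 32.8% of all promoters, and the response element in none of these genes and 3.44% of all. A match describes letters only.

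Depth and the wider contrast were checked first. The unit is FPKM as deposited, a read count divided by gene length and a library size, and 15537863 to 17499132 whole reads per library could be recovered. The library size implied by the values was not the recovered read total. Reads over that size ran from 1.05 to 1.09 in WT and from 0.901 to 0.939 in KLF10AKO, so it lowered FPKM in KLF10AKO relative to WT. TPM, which rescales the values to the same sum in each library, does not depend on that size. Klf10, the targeted gene, ran from 16.7 to 21.1 FPKM in WT and from 9.39 to 9.75 in KLF10AKO (limma adjusted p = 8.96e-06). Of 16012 genes tested with limma on log2(FPKM + 0.5), 74.3% passed an adjusted p of 0.05, 39.4% higher and 34.9% lower in KLF10AKO. The groups did not overlap in 69.2% of genes, 36.2% higher and 33.0% lower. Of the genes that passed, 53.0% were higher, beside 63.4% with TPM and 41.2% with quantile normalization. Libraries stood apart by tissue markers: the summed FPKM of 7 skeletal muscle genes was 162 to 215 in WT, 3319 to 7704 in KLF10AKO replicates 1 to 3 and 33.7 in replicate 4. Adipocyte markers, which define the labelled tissue, were read in all 8 libraries, but not evenly. Their summed FPKM was 8142 to 8273 in WT and 1978 to 2682 in KLF10AKO. That of pan-B cell markers was 2.60 to 3.33 in WT and 914 to 1367 in KLF10AKO.

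The 9 genes did not move as a block, and 8 of them rose far less than the naive B cell genes or fell, while for Mzb1 the comparison depended on the constant added. Mzb1 was far higher in KLF10AKO, Irf4 was about 4 times as high, and Jchain, Mef2b and Prdm1 were higher at low levels. Xbp1, Sdc1, Bcl6 and S1pr2 were lower. All 9 passed the abundance filter and all 9 passed the test, 5 higher and 4 lower, where 74.3% of all genes passed, 39.4% higher and 34.9% lower. None overlapped between the groups, where 69.2% of all genes did not (36.2% higher, 33.0% lower), so the count by itself says little about these genes. Mzb1 and Prdm1, like Fcer2a, reached the filter only through their KLF10AKO libraries. With libraries scaled to 6 pan-B cell markers all 9 were lower, as were 99.7% of all genes, and scaled to 8 adipocyte markers all 9 were higher, as were 96.2% of all genes. Turns of direction under these scalings are therefore shared with nearly all genes. These scalings moved the median log2 change of all genes to -7.03 and 1.87. The median log2 change of the 9 was 0.53, beside 0.05 for all genes tested. Each of the 9 and both naive genes had an exact two-sided permutation p of 0.0286, the smallest that 4 against 4 can give. In bulk tissue, fewer cells of a type and less RNA per cell cannot be told apart.

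**Figure D1:**
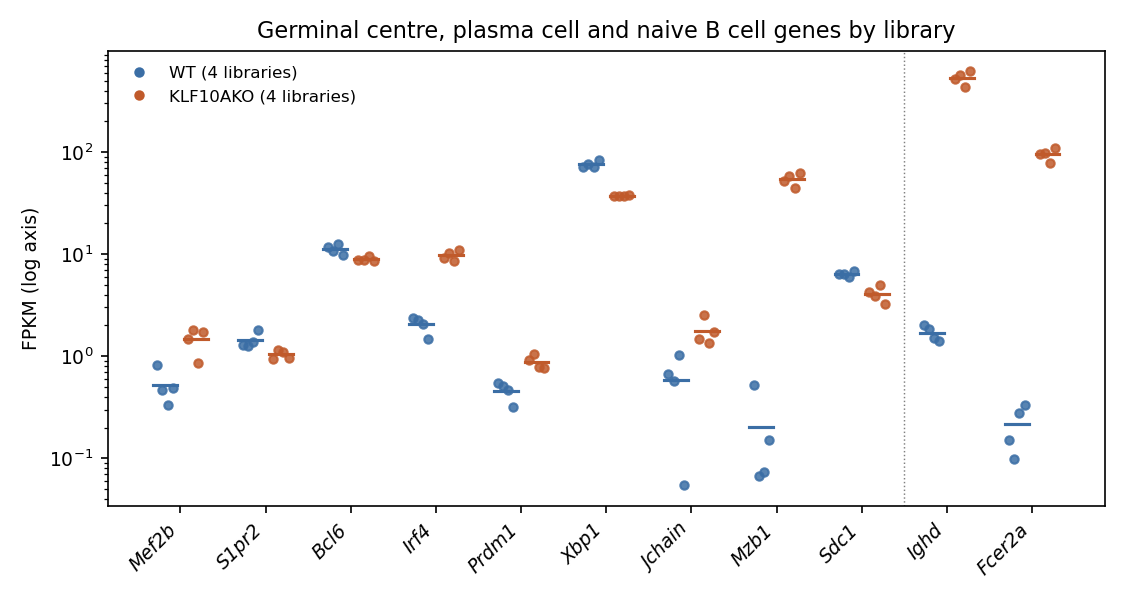
FPKM on a log axis for the 9 genes and, right of the dotted line, the naive genes Ighd and Fcer2a. Points are libraries (WT blue, KLF10AKO orange) and bars are means of 4. Ighd, Fcer2a and Mzb1 are far apart between the groups, while Bcl6 and S1pr2 lie close.

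The naive reference is described first. Ighd (ENSMUSG00000104213, mm10 chromosome 12, 113406604 to 113416324, minus strand) encodes the heavy chain of immunoglobulin D. It stood at 2.01, 1.84, 1.51 and 1.40 FPKM in WT replicates 1 to 4 and at 520, 562, 431 and 615 in KLF10AKO replicates 1 to 4. Fcer2a (ENSMUSG00000005540, chromosome 8, 3681737 to 3694175, minus strand) encodes CD23, the low-affinity IgE receptor of follicular B cells. Its values were 0.152, 0.0972, 0.280 and 0.330 FPKM in WT and 95.1, 96.9, 78.7 and 111 in KLF10AKO. Both were high in every KLF10AKO library and lowest there in replicate 3. Their log2 changes of 7.92 (SE 0.127) and 7.07 (SE 0.132) are the scale for what follows. The WT values of Fcer2a rest on 5 to 15 reads a library and lie below the 0.5 FPKM added, so its change is understated. By the ratio of mean FPKM, KLF10AKO over WT, Fcer2a rose more (444) than Ighd (315).

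Among the germinal centre genes, Mef2b (ENSMUSG00000079033, chromosome 8, 70139711 to 70167488, plus strand), the MEF2 factor of germinal centre B cells, was the one that rose. It stood at 0.811, 0.471, 0.332 and 0.485 FPKM in the WT libraries, against 1.47, 1.80, 0.864 and 1.74 in KLF10AKO. The groups did not overlap, but KLF10AKO replicate 3 lay just above WT replicate 1. These levels rest on 7 to 17 reads per WT library and 22 to 48 per KLF10AKO library. The log2 change was 0.93 (SE 0.204, limma adjusted p = 0.00271). Mef2b shares exon bases with Borcs8 on the same strand, so its level is uncertain.

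Bcl6 (ENSMUSG00000022508, chromosome 16, 23965052 to 23988852, minus strand), the repressor that defines the germinal centre state, was lower in KLF10AKO. Its FPKM was 11.7, 10.6, 12.5 and 9.74 in WT and 8.70, 8.78, 9.57 and 8.58 in KLF10AKO, each value resting on 958 to 1252 reads. The highest KLF10AKO library, replicate 3, lay just under the lowest WT library, replicate 4. The log2 change was -0.30 (SE 0.0810, adjusted p = 0.00805). The call was lost with TPM, at -0.11 (adjusted p = 0.351), and the direction turned to 1.52 when libraries were scaled to 8 adipocyte markers. Bcl6 overlaps exon bases of Gm37419 on the opposite strand.

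S1pr2 (ENSMUSG00000043895, chromosome 9, 20962361 to 20976781, minus strand), the receptor that confines B cells to the germinal centre, was lower by the smallest margin to the threshold. It stood at 1.29, 1.24, 1.39 and 1.82 FPKM in the WT libraries, against 0.940, 1.16, 1.10 and 0.967 in KLF10AKO. WT replicate 4 was the highest, and the other WT libraries lay just above the KLF10AKO range. The log2 change was -0.32 (SE 0.118, adjusted p = 0.0334). It did not pass without WT replicate 3 (-0.33, adjusted p = 0.0593), without WT replicate 4 (-0.23, adjusted p = 0.0755), without KLF10AKO replicate 1 (-0.29, adjusted p = 0.0820) or without KLF10AKO replicate 4 (-0.30, adjusted p = 0.0685). It also turned to 1.50 with adipocyte marker scaling.

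The transcription factors of plasma cell differentiation split. Irf4 (ENSMUSG00000021356, chromosome 13, 30749226 to 30766976, plus strand), an interferon regulatory factor of activated lymphocytes, plasma cells and adipocytes, stood at 2.38, 2.26, 2.08 and 1.46 FPKM in WT. In KLF10AKO it stood at 9.23, 10.2, 8.63 and 11.0. All KLF10AKO libraries lay well above all WT libraries, and the log2 change was 2.02 (SE 0.130, adjusted p = 1.25e-06). Prdm1 (ENSMUSG00000038151, chromosome 10, 44437177 to 44528501, minus strand) encodes BLIMP1, the repressor that completes the plasma cell fate. It stood at 0.540, 0.507, 0.466 and 0.317 FPKM in the WT libraries, against 0.908, 1.06, 0.791 and 0.772 in KLF10AKO, on 26 to 47 and 76 to 112 reads. The groups did not overlap, and the log2 change was 0.53 (SE 0.134, adjusted p = 0.00579). Prdm1 lost its call with quantile normalization (0.10, adjusted p = 0.503).

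Xbp1 (ENSMUSG00000020484, chromosome 11, 5520659 to 5525893, plus strand), the factor of the unfolded protein response that plasma cells need to secrete antibody, fell. Its FPKM was 71.0, 75.7, 72.0 and 83.8 in WT and 36.7, 36.7, 37.3 and 37.9 in KLF10AKO. The KLF10AKO libraries were close to one another, with a coefficient of variation of 1.45%. The log2 change was -1.01 (SE 0.0628, adjusted p = 1.04e-06), and 0.81 with adipocyte marker scaling. FPKM counts all Xbp1 RNA and does not separate the spliced form that encodes the active factor.

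The plasma cell products differed most from each other. Mzb1 (ENSMUSG00000024353, chromosome 18, 35647266 to 35649367, minus strand) encodes an endoplasmic reticulum protein that helps fold immunoglobulin and is also made by marginal zone and B1 cells and plasmacytoid dendritic cells. It stood at 0.518, 0.0664, 0.0736 and 0.150 FPKM in WT, on 7, 1, 1 and 2 reads. In KLF10AKO it stood at 51.9, 58.0, 44.2 and 62.3 FPKM, on 726 to 996 reads. Every KLF10AKO library lay far above every WT library, with a log2 change of 6.31 (SE 0.193, adjusted p = 1.59e-08). The gene shares exon bases with Spata24 on the same strand.

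Jchain (ENSMUSG00000067149, chromosome 5, 88519809 to 88527891, minus strand), the chain that joins IgM and IgA into polymers, stayed low. It stood at 0.665, 0.573, 1.03 and 0.0541 FPKM in the WT libraries, against 1.49, 2.51, 1.34 and 1.71 in KLF10AKO. WT replicate 4 had 2 reads where the other WT libraries had 24 to 39, and KLF10AKO libraries had 61 to 120. The groups did not overlap, and the log2 change was 1.13 (SE 0.302, 95% interval 0.44 to 1.82, adjusted p = 0.00793). Against KLF10AKO replicate 4 alone, Jchain stood at 1.12 and did not pass (adjusted p = 0.162).

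Sdc1 (ENSMUSG00000020592, chromosome 12, 8771323 to 8793715, plus strand) encodes CD138, the surface proteoglycan by which plasma cells are sorted. Its FPKM was 6.40, 6.38, 5.90 and 6.78 in WT and 4.28, 3.91, 4.99 and 3.24 in KLF10AKO. All KLF10AKO libraries lay below WT, replicate 4 lowest. The log2 change was -0.59 (SE 0.112, adjusted p = 0.00120), and 1.23 with adipocyte marker scaling.

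**Figure D2:**
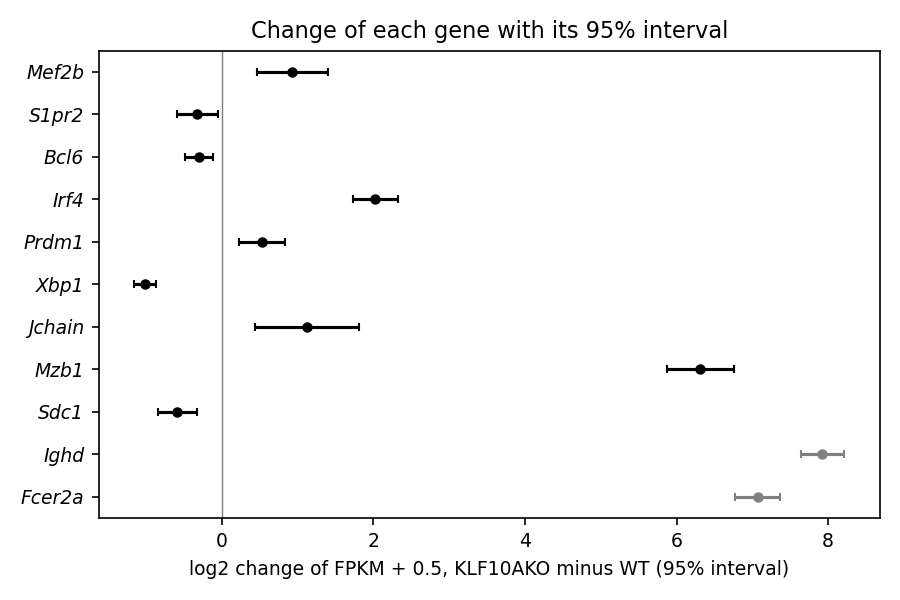
Log2 change of FPKM + 0.5 between KLF10AKO and WT for each gene, with limma's 95% interval (n = 4 libraries a group). Mzb1 at 6.31 lies near the naive genes in grey, Irf4 is at 2.02, and the other members lie between -1.01 and 1.13.

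The order of levels differed between the groups. In WT it ran Xbp1 (75.6 ± 5.79 FPKM, SD, n = 4), Bcl6 (11.1 ± 1.19), Sdc1 (6.36 ± 0.361), Irf4 (2.04 ± 0.408) and S1pr2 (1.43 ± 0.264), followed by Jchain (0.581 ± 0.404), Mef2b (0.525 ± 0.203), Prdm1 (0.457 ± 0.0982) and Mzb1 (0.202 ± 0.214). The ranges of WT libraries overlapped between Irf4 and S1pr2 and between neighbours from Jchain down. In KLF10AKO the order was Mzb1 (54.1 ± 7.84), Xbp1 (37.2 ± 0.540), Irf4 (9.77 ± 1.05), Bcl6 (8.91 ± 0.451), Sdc1 (4.11 ± 0.730), Jchain (1.76 ± 0.523), Mef2b (1.47 ± 0.427), S1pr2 (1.04 ± 0.104) and Prdm1 (0.882 ± 0.132). There Irf4 overlapped with Bcl6, and each gene from Jchain down overlapped with the next. Mzb1 went from the lowest of the 9 to the highest.

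Levels were also set against Ighd within the same library. Ighd itself rose by a log2 change of 7.92, so any gene that rose clearly less stands lower on this scale in KLF10AKO. For 100 FPKM of Ighd, KLF10AKO libraries held 0.278 to 0.447 FPKM of Jchain, 0.126 to 0.188 of Prdm1, 0.201 to 0.321 of Mef2b and 0.157 to 0.255 of S1pr2. Irf4 stood at 1.78 to 2.002, Bcl6 at 1.40 to 2.22, Sdc1 at 0.528 to 1.16 and Xbp1 at 6.16 to 8.65. Mzb1 stood at 9.99 to 10.3 per 100 in KLF10AKO, the narrowest range of the 9 relative to its level. In WT, where Ighd had 39 to 58 reads a library, Mzb1 ranged from 3.62 to 25.8 per 100 and Jchain from 3.87 to 68.5. Every other member was above 20 per 100 in all WT libraries.

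The log2 ratio of each gene to the geometric mean of Ighd and Fcer2a, with 0.5 FPKM added to each, was lower in KLF10AKO for all 9. The naive genes themselves rose by 7.92 and 7.07, so any gene that rose clearly less has a lower ratio. This share was not computed over all genes. Under the similar scaling to pan-B cell markers, 99.7% of all genes were lower, so the count says little about the 9. The 9 ratios share their denominator, their exact two-sided permutation p was 0.0286 each (unadjusted, the smallest possible), and a ratio within a library shows unequal change only. The Xbp1 ratio went from 5.94 ± 0.125 in WT to -2.57 ± 0.204 in KLF10AKO (SD, n = 4 each), a difference of -8.51. The Irf4 ratio went from 1.02 ± 0.263 to -4.45 ± 0.0823, a difference of -5.47, and the other 6 genes beside Mzb1 lay between these. The Mzb1 ratio moved least, from -0.87 ± 0.365 to -2.05 ± 0.0365, a difference of -1.18. With 0.1 FPKM added in place of 0.5, the Mzb1 difference was -0.56 with an exact p of 0.171, which did not pass.

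**Figure D3:**
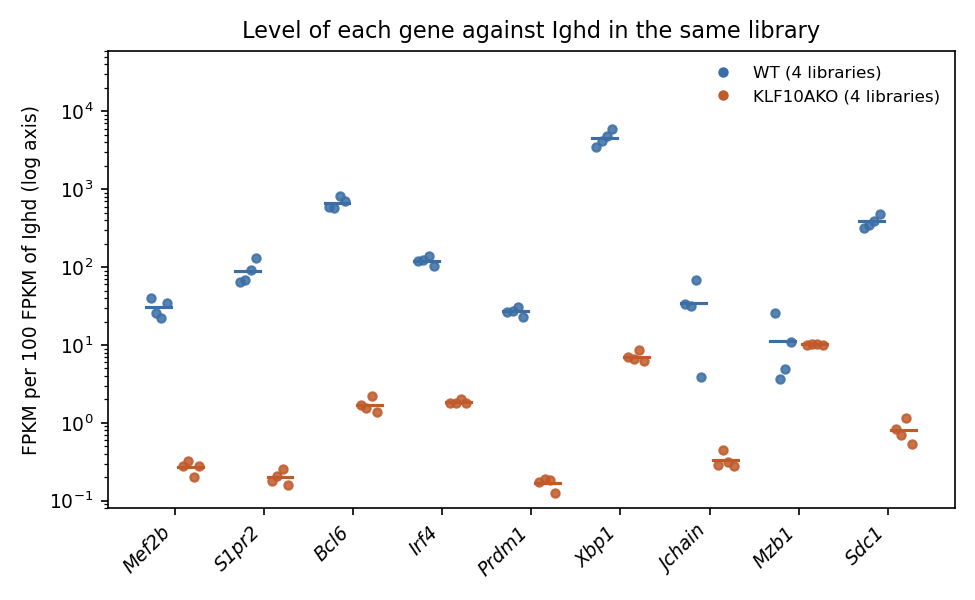
FPKM of each member per 100 FPKM of Ighd in the same library, on a log axis. Points are libraries (WT blue, KLF10AKO orange) and bars are means of 4. The KLF10AKO points lie below the WT points for 8 of 9 genes, and for Mzb1 the 4 KLF10AKO libraries sit at 9.99 to 10.3 inside the WT range.

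Markers of other cells also differed between the groups, where 39.4% of all genes tested were higher and 34.9% lower. All 6 pan-B cell markers were higher, their summed FPKM going from 2.60 to 3.33 in WT to 914 to 1367 in KLF10AKO, and all 8 T cell markers were higher, from 2.66 to 4.65 to 267 to 393. T cells also make Irf4, Prdm1 and Bcl6. Of 5 tested markers of plasmacytoid dendritic cells 4 were higher and 1 lower. Siglech, their surface lectin, went from 0.456 ± 0.135 to 8.46 ± 1.28 FPKM (SD, n = 4 each). The sum of that list (99.8 to 128 in WT, 222 to 300 in KLF10AKO) includes Cox6a2, which is also a muscle gene. Beside the 4 lower genes, all 8 adipocyte markers were lower, summing to 8142 to 8273 FPKM in WT and 1978 to 2682 in KLF10AKO. Of 6 macrophage markers 4 were lower and 0 higher, with sums of 212 to 234 and 155 to 186.

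Trophoblast markers, of a tissue that also makes Prdm1, were read in WT: 4 of 4 tested were lower in KLF10AKO, with sums of 13.2 to 38.1 in WT and 0 to 0.0520 in KLF10AKO, and Prl3d1 and Gcm1 were at 0 in all 8 libraries. Beside Sdc1, the 6 epithelial markers summed to 0.533 to 1.34 FPKM in WT and 1.33 to 2.36 in KLF10AKO, with Krt5 at 0 in all libraries and Krt14 at 0 in WT. The only epithelial marker tested, Epcam, was higher. The part of each of these cell types in the results was not tested. With KLF10AKO replicate 4 alone, where muscle genes were low, 3 of the 9 were higher (Mzb1 at 6.53, Irf4 at 2.19 and Mef2b at 1.15) and 2 lower (Xbp1 at -0.99 and Sdc1 at -0.87). Of all genes 62.1% passed in that comparison, 32.4% higher and 29.7% lower, so the share of members is near the background. That library is then assumed to vary like WT.

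Within the KLF10AKO group, the libraries ranked differently from gene to gene. Mzb1, Irf4, Ighd and Fcer2a were highest in replicate 4, then 2, 1 and 3, the order of each of the 6 pan-B cell markers and of 7 of the 8 T cell markers. Mef2b and Jchain were highest in replicate 2 and lowest in replicate 3, and Prdm1 was highest in replicate 2 and lowest in replicate 4. Sdc1 had the order 3, 1, 2, 4, that of the summed adipocyte markers and of the summed skeletal muscle genes. Over the KLF10AKO libraries the coefficient of variation was 14.5% for Mzb1, 14.6% for Ighd and 13.7% for Fcer2a, and 1.45% for Xbp1. These are descriptions of 4 libraries.

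**Figure D4:**
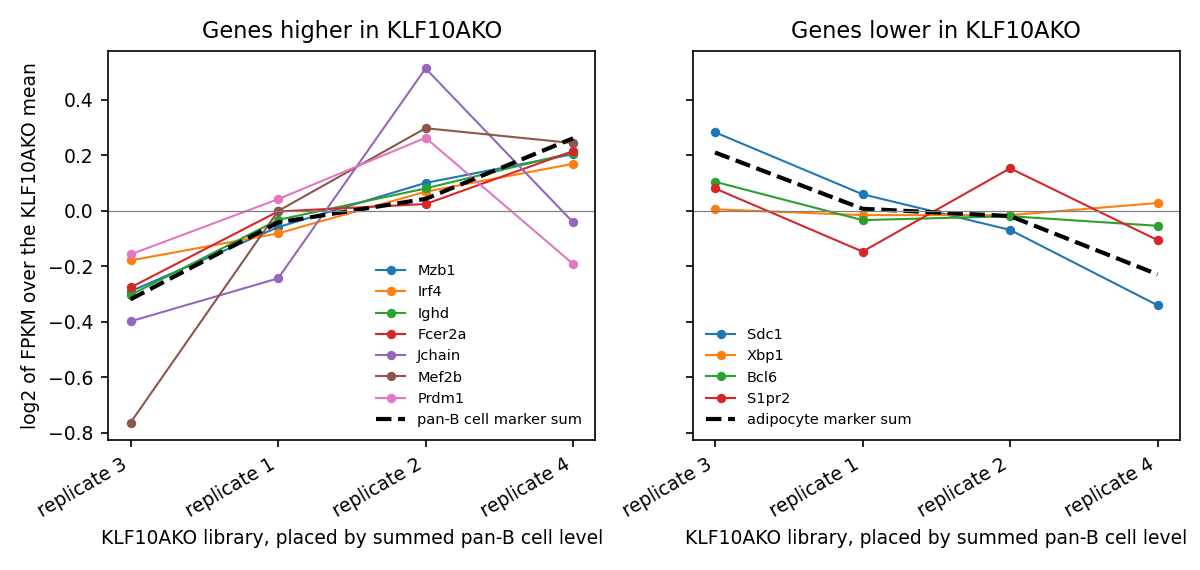
Log2 of FPKM over the KLF10AKO mean in each KLF10AKO library, placed from the lowest to the highest summed pan-B cell level, for members and naive genes that were higher (left) and members that were lower (right). Dashed lines are the summed pan-B cell and adipocyte markers. Mzb1, Irf4, Ighd and Fcer2a follow the first, Sdc1 the second, and Xbp1 is nearly flat.

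Likeness to other protein-coding genes was measured over the 8 libraries, as the root mean square difference of log2(FPKM + 0.5) after each gene's own mean was subtracted. Mzb1 was nearest to the T cell coreceptor genes Cd8a (0.139) and Cd8b1 (0.145). Irf4 was nearest to Klf2 (0.0434), a factor of resting lymphocytes and endothelium, then to Itgb3 (0.0828). Jchain was nearest to the replication gene Pclaf (0.204) and Gbp10 (0.240), a looser match than for the other 8. Mef2b was nearest to Mrgpre (0.125) and Zfp61 (0.147), and Prdm1 to Zcchc4 (0.0496) and Rnf126 (0.0626). The lower genes had close neighbours: Xbp1 had Heg1 (0.0380) and Tgfbr3 (0.0435), Bcl6 had Ost4 (0.0382) and Timm50 (0.0388), Sdc1 had Map2k3 (0.0432) and Psme4 (0.0536), and S1pr2 had Phactr4 (0.05003) and Gas8 (0.0552).

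Other genes of the germinal centre were read from a list of 15. Of these 11 could be tested, 8 higher and 2 lower in KLF10AKO, with a median log2 change of 0.79. Among all genes tested 39.4% were higher and 34.9% lower, with a median of 0.05. Il21r, the receptor for the helper cytokine IL-21, changed by 5.87, Klhl6 by 3.98 and Lmo2 by 1.94, while the ephrin gene Efnb1 changed by -1.23. The other gene that passed lower was the death receptor gene Fas (-0.89). Like 96.2% of all genes, both were higher with adipocyte marker scaling. Gcsam, a signalling adaptor of germinal centre B cells, averaged 0.0706 ± 0.0671 FPKM (WT) against 1.26 ± 0.131 (KLF10AKO; SD, 4 libraries each), and its log2 change was 1.63 (adjusted p = 7.80e-06). Rgs13 and Nuggc, also expressed in germinal centre B cells, were scarce. Rgs13 had 2 reads over the WT group and 7 over the KLF10AKO group. Nuggc had 14 and 43. In the same KLF10AKO libraries Ighd had 74444 reads. Rgs13, Nuggc, Gcsam and Fas were named after their values were seen.

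Of 10 further plasma cell genes 9 could be tested, 5 higher and 2 lower, with a median of 0.44. The shares of all genes tested were 39.4% higher and 34.9% lower, with a median of 0.05. Pou2af1, the B cell coactivator OBF1, changed by 6.28, Tnfrsf13b (TACI, a receptor for the survival factors BAFF and APRIL) by 4.39, Slamf7 by 2.14, Tent5c by 1.65 and the chemokine receptor gene Ccr10 by 0.44 (adjusted p = 0.0363). Pou2af1 and Tnfrsf13b are also genes of mature B cells. The other 5 genes of the list, which with Ccr10 were named after their values were seen, did not pass higher. Tnfrsf17 (BCMA, their survival receptor) had 9, 13, 9 and 3 reads in WT and 2, 11, 3 and 3 in KLF10AKO. Derl3, which clears misfolded proteins from the endoplasmic reticulum, stood at 1.60 ± 0.566 and 1.25 ± 0.282 FPKM (SD, n = 4 each; log2 change -0.25, 95% interval -0.70 to 0.20). Fkbp11 stood at 0.861 ± 0.190 and 1.04 ± 0.255 FPKM (0.17, 95% interval -0.18 to 0.53). The elongation factor gene Ell2, needed for secretory antibody RNA, fell by 0.87, and its partner Eaf2 by 0.35, and both were higher with adipocyte marker scaling (0.95 and 1.47).

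Of 19 genes of the secretory pathway, much of it under XBP1 and ATF6, 6 were higher, 6 lower and 7 did not pass, with a median of 0.02. Among all genes tested 39.4% were higher and 34.9% lower, with a median of 0.05, so these counts say little about the pathway. Sec11c, a signal peptidase subunit, changed by 1.47, the disulphide isomerase gene Pdia6 by -0.69, the coat protein gene Sec24d by -1.02 and Edem1 by -0.56. Under adipocyte marker scaling all 19 were higher, as were 96.2% of all genes.

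Genes on the naive side were all higher or nearly so, where 39.4% of all genes tested were higher. All 10 of a list of naive and follicular B cell genes were higher, at a median of 5.56, among them the complement receptor gene Cr2 (5.30), Cd22 (6.72) and Ccr7 (6.29). Of 7 factors that hold B cell identity and are silenced in plasma cells, 6 were higher, with Spib at 6.77, Pax5 at 6.26, Ciita at 3.37 and Irf8 at 3.32, at a list median of 3.32. Ebf1, which fat cell precursors and adipocytes also express, was lower (-0.60), and turned to 1.22 with adipocyte marker scaling. Pax5 and Prdm1 were both higher in KLF10AKO, at 37.9 to 55.8 and 0.772 to 1.06 FPKM there, and a link between them was not tested.

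In KLF10AKO, constant regions of switched antibodies were low beside Ighd. Ighd stood at 532 ± 77.8 FPKM there and at 1.69 ± 0.284 in WT (SD, n = 4 each), on 74444 and 197 reads over the groups. Igha, the heavy chain of IgA, had 2.45 ± 0.327 FPKM (KLF10AKO) against 0.620 ± 0.341 (WT) (SD, n = 4 each), and Ighg1, Ighg2b, Ighg2c and Ighg3 had 92, 399, 65 and 287 reads over the KLF10AKO group and 0, 1, 4 and 2 over WT. Light chain genes were high: Igkc changed by 7.13, Iglc1 by 7.14, Iglc2 by 7.79 and Iglc3 by 7.40. Iglc2 and Iglc3 are near-identical, so their split is uncertain. Of the 11 constant region genes 8 could be tested and 8 were higher, where 39.4% of all genes tested were higher.

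Helper and niche signals were higher in 6 of the 9 genes tested from a list of 11, with 0 lower and a median of 2.03. The shares of all genes tested were 39.4% higher and 34.9% lower. Cxcl13, the chemokine that draws B cells into follicles, changed by 6.28, and the T cell genes Icos, Cd40lg and Pdcd1 changed by 3.49, 3.03 and 2.21. The germinal centre cytokine gene Il21 had 0 reads in WT and 13, 13, 14 and 18 in KLF10AKO.

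**Figure D5:**
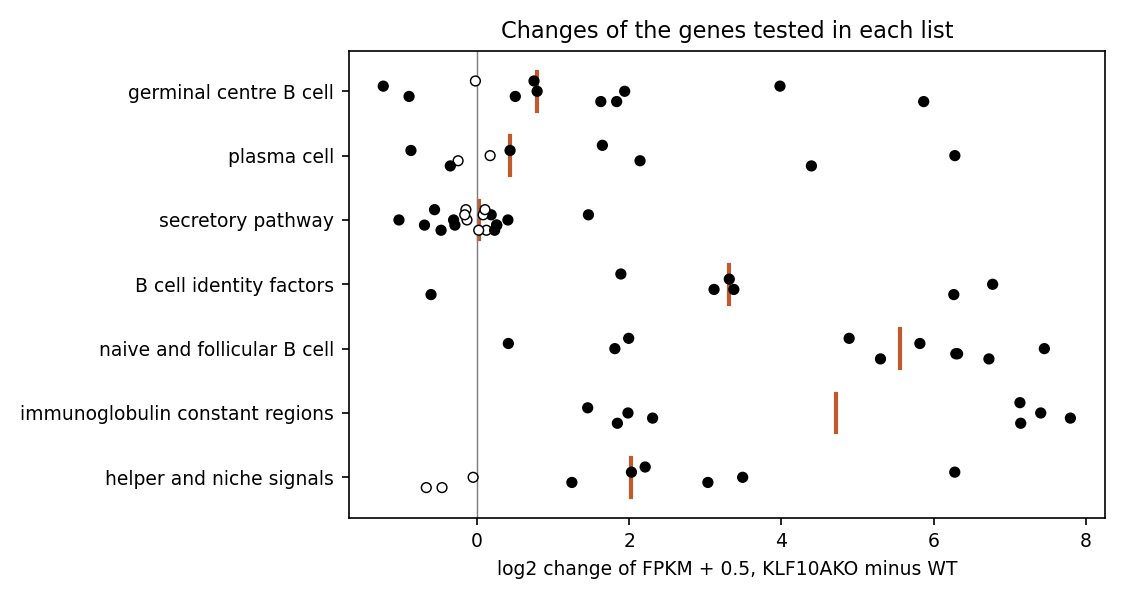
Log2 change of each tested gene of the 7 lists, KLF10AKO minus WT. Filled points passed an adjusted p of 0.05, open points did not, and the orange bar is the list median. The naive and follicular list lies highest by median (5.56), and the plasma cell and secretory lists lowest (0.44 and 0.02), beside 0.05 for all genes tested.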

How the data were processed

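RNA of 8 iWAT libraries was analysed, 4 WT and 4 KLF10AKO, grouped by their titles. Per the labels, poly(A) RNA was fragmented and primed with random hexamers. HISAT2 2.0.5, featureCounts 1.5.0-p3, edgeR 3.22.5 and mm10 are named in the submitters' processing notes; no source used here gives their roles, the annotation or the strand setting. The deposited values are the authors' FPKM, with gene lengths. FPKM times length was a whole multiple of 1 step per library within 0.01 of a read for 100% of values above 0, which gave the reads quoted. Gene identifiers matched GENCODE M21 in 99.9% of cases, and 98.3% of those had the same coordinates.

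The test was limma 3.58.1 (R 4.3.3; lmFit, eBayes with trend) on log2(FPKM + 0.5). It took genes whose mean FPKM reached 0.5 and used no covariate. Two-sided p-values were Benjamini-Hochberg adjusted over all 16012 genes, with a threshold of 0.05. Log2 changes are on that scale, which understates low genes. Exact permutation tests used the 8 values of a gene or ratio. The procedure was tested on simulated data in which a small share of genes changed. In these libraries 74.3% of genes passed, so that test does not show how the procedure behaves here. The members, lists and marker sets were chosen with earlier results of these data known, so list counts are descriptions. Named genes are the members, the naive genes, Klf10, up to 4 genes of lowest p per list and the 2 nearest patterns per member; Ebf1, Ell2, Eaf2, Derl3, Fkbp11, Ighm and Igha, with those named as such in the text, were added after their values were seen, and 1 gene the rule named is not reported here. Alternatives were other pseudocounts, filters and scalings, voom on recovered reads, a replicate block and libraries left out.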

Additional observations from a re-analysis of the deposited data

Results flagged for a closer look

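Of 96 groups of 4 libraries, those of 48 genes in WT and KLF10AKO, 2 held a library far from the other 3 by Dixon's 95% limit; chance flags about 1 in 20 groups. Cd40lg, the T cell ligand that helps B cells, stood at 5.44 FPKM in KLF10AKO replicate 4, above 3.25 to 3.62 in the other 3 (gap over range 0.831). Gcsam stood at 1.06 FPKM in KLF10AKO replicate 3, below 1.32 in each of the other 3 (gap over range 0.995). None of the 9 germinal centre and plasma cell genes, nor Ighd or Fcer2a, was among them.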

How the results depend on the processing

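The marker scalings moved nearly all genes alike, so the turns of direction are not particular to the genes named. With libraries scaled to 8 adipocyte markers, 96.2% of all genes were higher, 9 members were higher and 0 lower, and these log2 changes turned from lower to higher: S1pr2 1.50, Bcl6 1.52, Xbp1 0.81, Sdc1 1.23, Klf10 0.94, Efnb1 0.59, Pdia6 1.13, Sec24d 0.80, Edem1 1.26, Fas 0.93, Ell2 0.95, Eaf2 1.47, Derl3 1.57, Ebf1 1.22. With libraries scaled to 6 pan-B cell markers, 99.7% of all genes were lower, 0 members were higher and 9 lower, and these turned from higher to lower: Mef2b -6.14, Irf4 -5.05, Prdm1 -6.54, Jchain -5.94, Mzb1 -0.76, Il21r -1.21, Klhl6 -3.09, Lmo2 -5.13, Pou2af1 -0.80, Tnfrsf13b -2.68, Slamf7 -4.93, Tent5c -5.43, Sec11c -5.61, Spib -0.30, Pax5 -0.81, Irf8 -3.76, Ciita -3.70, Cr2 -1.77, Cd22 -0.35, Ccr7 -0.78, Cxcl13 -0.80, Icos -3.58, Cd40lg -4.04, Pdcd1 -4.86, Gcsam -5.45, Fkbp11 -6.90, Ighm -5.23, Igha -5.62. Fcer2a stood at -0.00513 (adjusted p = 0.962), which did not pass. With replicate 4 as the one KLF10AKO library, 3 members passed higher and 2 lower (32.4% and 29.7% of all genes). With TPM, 2 passed lower (25.4% of all genes), and with a mean FPKM of at least 2, 2 passed higher (40.8%). Mef2b, S1pr2, Prdm1 and Jchain lay under that last filter and were not tested, and the members it left kept their calls. The Mzb1 ratio to the naive genes was -0.56 with 0.1 FPKM added. Leaving out 1 library at a time gave 11298 to 11862 genes passing, 5 members higher each time and 3 to 4 lower. S1pr2 also missed the threshold with TPM (-0.21) and with no filter, and Eaf2 with TPM and without WT replicate 2. The causes were not tested.

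Whether replicate numbers pair the libraries cannot be settled with 4 libraries a group. Deviations of same-numbered libraries correlated only weakly, by 0.00300 to 0.0310, and 3 of 4 WT libraries correlated best with their own number. With the number as a block, 11726 genes passed and S1pr2 stood at -0.32 (limma adjusted p = 0.0700). Members under 2 FPKM rest on few reads, so their changes are the least precise.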

Other observations

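Antibody genes of WT did not share one pattern. Ighm, the heavy chain of IgM, stood at 191 ± 56.4 FPKM in WT (SD, n = 4), while Ighd stood at 1.69 ± 0.284 in the same libraries. In KLF10AKO the values were 666 ± 68.2 and 532 ± 77.8. Jchain, Igha and Ighm shared their order of WT libraries, highest in replicate 3 and lowest in replicate 4, with 1.03 and 0.0541 FPKM of Jchain there. These are values of 4 libraries, and their source was not tested.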
